A study of Homo sapiens with 4 samples.

Results

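Kinetochore and spindle checkpoint genes encode the machinery that attaches chromosomes to the mitotic spindle and delays their separation until attachment is complete. The list held 39 genes. Their probe sets were taken from the values table of 4 arrays by gene symbol, and a gene with several probe sets was represented by the brightest one over the arrays. Of 39 genes, 38 had a probe set naming 1 gene, out of 19775 such genes on the array. The exception was CENPP, an inner kinetochore subunit, for which no value is given. Expression was measured in HCT116, an established human colon carcinoma line, grown without treatment either as monolayer cultures or as spheroids. The study used multicellular spheroids (MCS), which have a dividing rim around a largely quiescent core, as a model of poorly supplied tumour tissue. Total RNA of 2 independent monolayer cultures and 2 independent spheroid cultures was hybridized to 1 oligonucleotide array each. Whole cultures of 1 cell line were measured, so rim and core of the spheroids are averaged. The labels give no culture time, and the study's supplement describes the spheroids as several days old.

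The kinetochore is built on nucleosomes that contain the histone variant CENP-A, which is loaded at the centromere by a dedicated chaperone and its licensing factors. An inner layer, the constitutive centromere-associated network (CCAN), stays on this chromatin, and the KNL1, MIS12 and NDC80 complexes form an outer layer that grips microtubules together with the SKA complex. Unattached kinetochores recruit the checkpoint proteins, which restrain the anaphase-promoting complex (APC/C) through its activator CDC20. In dividing human cells the transcripts of many of these genes are known to accumulate late in the cell cycle.

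Spheroids had lower transcript levels of the kinetochore and checkpoint genes than monolayers. Of the 38 genes with a probe set, 36 had a mean signal above 300 units over the 4 arrays and were tested, while CENPI and SGO1 were below this level. Each tested gene also had a spheroid mean above 300 units, so none entered through its monolayer signal alone. Of the 36 tested, 31 were lower in spheroids and 0 higher at a limma adjusted p under 0.05, the limit for what is termed called here. The background over 8721 genes tested was 20.6% called lower and 19.0% called higher. Between 27 and 31 of the 36 were called lower when 1 array was left out, the fewest without monolayer replicate 2. In all 36, both spheroid arrays lay below both monolayer arrays, which held for 36.6% of all genes tested. The median difference, spheroids minus monolayers, was -0.96 on the log2 scale for the 36 genes and -0.030 for all genes tested. In the median gene the mean spheroid signal was 50.5% of the mean monolayer signal. Fewer dividing cells and less of these RNAs per cell cannot be told apart in whole cultures.

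**Figure D1:**
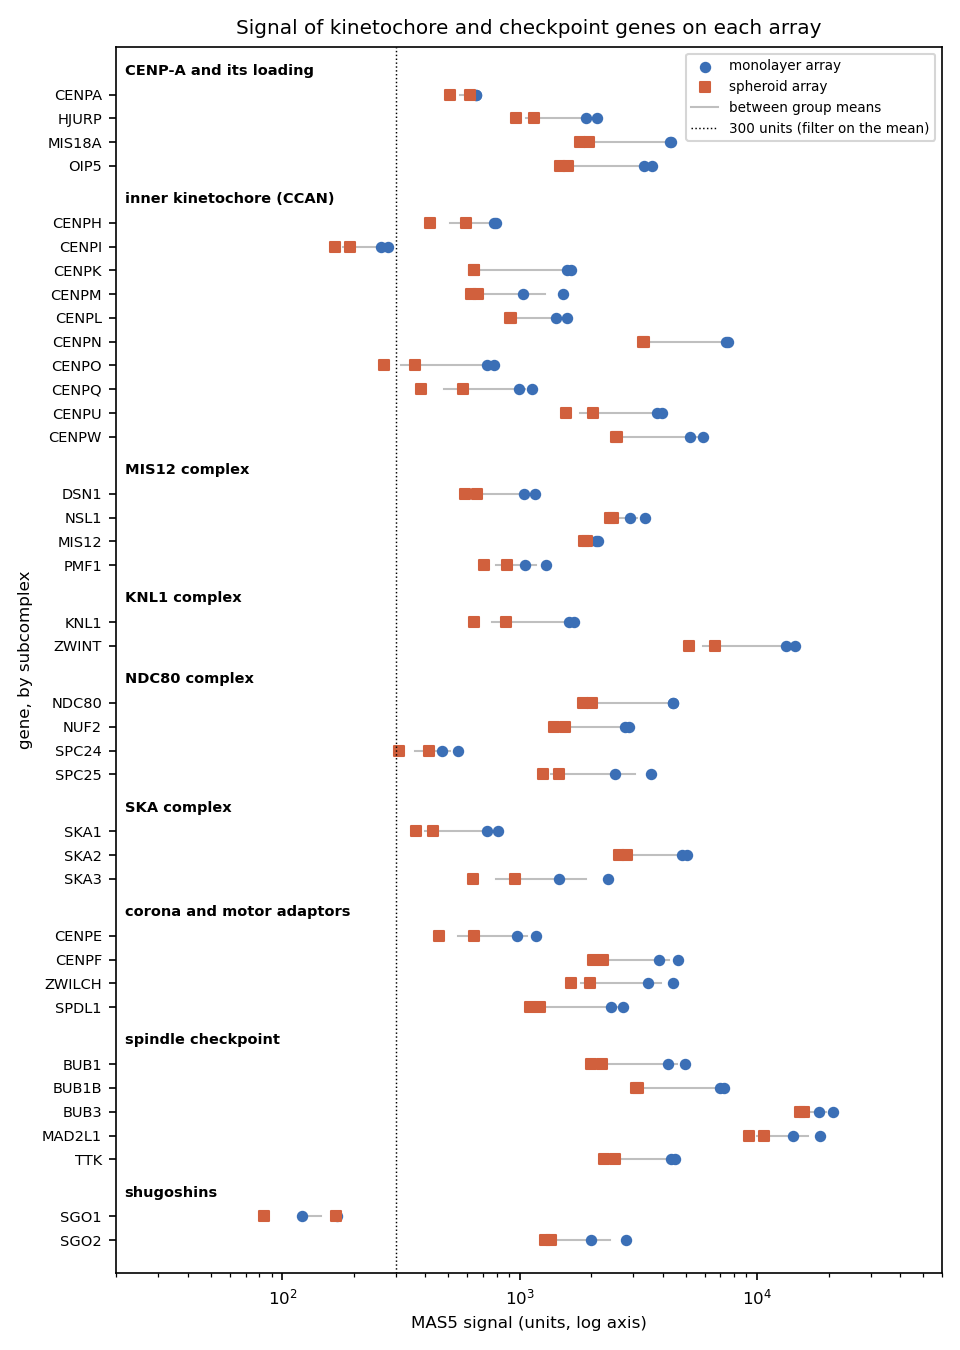
MAS5 signal in units (x, log axis) of each gene on the 2 monolayer arrays (circles) and the 2 spheroid arrays (squares), grouped by subcomplex, with a line between group means and a dotted line at the filter of 300 units. Squares lie left of circles for every gene except SGO1, and CENPI and SGO1 have means left of the dotted line.

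Many of the decreases lay close to 2-fold. A decrease of at least 1 on the log2 scale, which is 2-fold, was reached by 17 of 36 genes, against 3.88% of all genes tested. The 5th percentile of all genes tested was -0.93, and 20 of the 36 genes lay at or beyond it. The values ran from -1.29 for CENPK to -0.15 for MIS12. The 5 genes not called were CENPA, NSL1, MIS12, PMF1 and SPC24. Between replicates of one culture type, the log2 difference of replicate 2 minus replicate 1 ran from -0.49 (SPC25) to 0.68 (SKA3) in monolayers and from -0.56 (SKA3) to 0.55 (CENPQ) in spheroids.

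**Figure D2:**
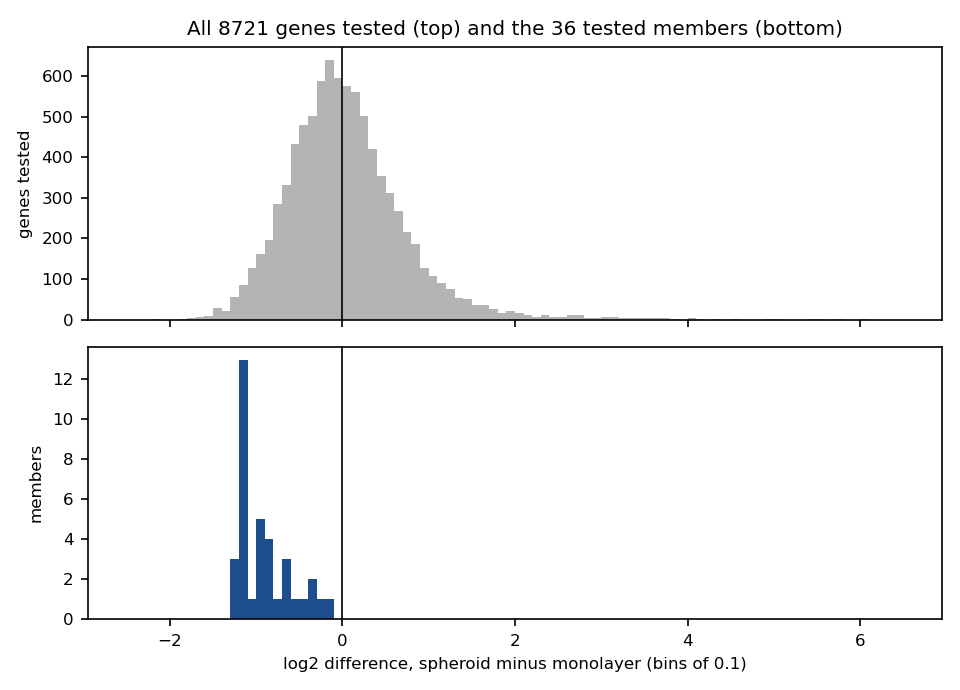
Number of genes (y) in bins of 0.1 of the log2 difference, spheroids minus monolayers (x), for all 8721 genes tested (top) and the 36 kinetochore and checkpoint genes tested (bottom). The 36 genes lie between -1.29 and -0.15, whereas all genes spread to both sides of their median of -0.030.

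The arrays had been scaled by the authors to a common average (trimmed mean 500.1), so every difference is relative to the total signal of an array. Added Bacillus control RNAs gave 1.82-fold more signal on the spheroid arrays, and the sources used here do not state whether equal amounts were added to every array. Scaling to them moved the median of all genes tested from -0.030 to -0.87 and that of the 36 genes to -1.80. The 3' to 5' signal ratio of the ACTB control, which rises as RNA degrades, was 2.34 to 2.64 on the monolayer arrays and 2.82 to 3.0 on the spheroid arrays, and its part in the results was not tested. The ratio for GAPDH was 1.02 to 1.07 on the monolayer arrays and 0.921 to 0.931 on the spheroid arrays. The 18S ribosomal RNA control was brighter on both arrays numbered 1 (5789 and 2860) than on both numbered 2 (937 and 706), in monolayers and spheroids respectively. Both culture types carried the epithelial markers EPCAM, KRT8, KRT18, KRT19 and CDH1, of which CDH1 (1.73) and KRT19 (0.79) were called higher in spheroids, while KRT8 (-0.49), KRT18 (-0.11) and EPCAM (0.016) were not called. Of 8 fibroblast and leukocyte markers, COL3A1, LUM, DCN, PTPRC, CD3E and LYZ were under 300 units, CD68 had no usable probe set, and COL1A1 was above it at 658 to 869 in monolayers and 2222 to 2659 in spheroids (called higher, 1.64). In the fit without a filter LYZ was called higher, at signals of 1.54 to 3.79 in monolayers and 41.3 to 68.1 in spheroids. The part of these markers in the results was not tested.

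The promoters of these genes were examined because the genes moved together. Of the 39 genes, 32 had a RefSeq promoter window (GRCh38.p14) of 250 bases before to 50 bases after the start of transcription. Each motif was searched on both strands, and none of them contains another. The cell cycle homology region (CHR, TTTGAA) is bound by the MuvB core of the DREAM and B-MYB complexes, CCAAT by NF-Y, and GCGGGAA by E2F factors. CHR letters were found in 14 of 32 windows (43.8%), against 15.5% of 27305 genes with a window, 9.85% of those tested and 14.1% of those called lower. CCAAT was found in 21 of 32 (65.6%), against 35.7% of all genes, 37.9% of those tested and 41.9% of those called lower. GCGGGAA was found in 7 of 32 (21.9%), against 6.55%, 11.2% and 15.2%. Both CHR and CCAAT letters occurred in 8 of 32 windows (CENPA, CENPF, CENPN, HJURP, MAD2L1, SPC25, SPDL1 and ZWINT), against 6.13% of all genes. For this pair the share of genes tested or called lower was not computed. Neither CHR nor CCAAT letters occurred in the windows of CENPE, CENPI, CENPP, DSN1 and NSL1. BUB3, TTK, KNL1, CENPH, CENPL, CENPM and MIS18A had no entry.

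The 120 bases before the start are shown for 4 genes that were lower with CHR letters (BUB1B, ZWINT, SPDL1 and HJURP), for CENPA, which has them and was not called, and for MIS12 and NSL1, which lack them and were not called. Genes called lower without CHR letters, such as CENPK and BUB1, are not shown. Capitals mark TTTGAA and CCAAT or their reverse complements TTCAAA and ATTGG.
BUB1B (chr15:40160949-40161068, plus strand): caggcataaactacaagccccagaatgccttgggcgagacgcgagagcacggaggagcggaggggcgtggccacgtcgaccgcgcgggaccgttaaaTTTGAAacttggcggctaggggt
ZWINT (chr10:56361274-56361393, minus strand): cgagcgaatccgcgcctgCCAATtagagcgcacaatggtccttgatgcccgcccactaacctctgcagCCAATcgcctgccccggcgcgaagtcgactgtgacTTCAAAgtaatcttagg
SPDL1 (chr5:169583653-169583772, plus strand): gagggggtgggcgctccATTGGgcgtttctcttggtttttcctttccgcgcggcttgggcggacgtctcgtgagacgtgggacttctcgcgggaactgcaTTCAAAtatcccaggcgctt
HJURP (chr2:233854536-233854655, minus strand): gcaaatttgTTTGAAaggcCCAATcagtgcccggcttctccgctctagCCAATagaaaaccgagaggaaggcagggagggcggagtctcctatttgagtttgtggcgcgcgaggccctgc
CENPA (chr2:26785936-26786055, plus strand): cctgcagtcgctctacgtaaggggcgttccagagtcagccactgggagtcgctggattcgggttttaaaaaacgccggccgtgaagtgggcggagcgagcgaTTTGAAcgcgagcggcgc
MIS12 (chr17:5486254-5486373, plus strand): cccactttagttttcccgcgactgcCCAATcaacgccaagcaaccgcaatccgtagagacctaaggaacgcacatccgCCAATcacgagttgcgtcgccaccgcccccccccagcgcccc
NSL1 (chr1:212791778-212791897, minus strand): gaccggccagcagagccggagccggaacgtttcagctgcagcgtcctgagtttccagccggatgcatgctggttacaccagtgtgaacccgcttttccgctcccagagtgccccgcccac

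The CHR letters began 23 bases before the start in BUB1B, 17 in ZWINT, 20 in SPDL1 and 18 in CENPA, but 111 before it in HJURP. MIS12 carried CCAAT at 95 and 42 bases before its start, and NSL1 carried neither motif. The 14 tested genes with CHR letters had a median log2 difference of -1.13 (range -1.23 to -0.21). The 15 tested genes with a window but without these letters had a median of -0.94 (range -1.29 to -0.15). The ranges overlapped almost completely, and CENPK, with the largest decrease on the probe sets used, had CCAAT but no CHR letters in its window. A match to these letters describes the sequence and was not tested as a binding site.

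Of the 4 genes for CENP-A and its loading, 3 were lower in spheroids and CENPA itself was not called, with a median log2 difference of -1.04. CENPA, the centromeric histone H3 variant, had signals of 653 and 656 on the monolayer arrays and 618 and 506 on the spheroid arrays. Its spheroid arrays were both below the monolayer arrays, but 1 of them only narrowly, and the log2 difference was -0.21 ± 0.22 (95% interval -0.69 to 0.26, limma adjusted p = 0.462). The interval included 0 and ended short of a 2-fold decrease. The CENPA probe set is of the _x_at type, which by the manufacturer's naming can also take signal from other transcripts. Those used for CENPH, CENPL, SKA1 and BUB3, which were called lower, are of this type too. The part of this in the results was not tested. HJURP, the chaperone that deposits CENP-A, had signals of 1907 and 2122 on the monolayer arrays and 966 and 1148 on the spheroid arrays. It was lower by a wide gap between the groups, with a log2 difference of -0.91 ± 0.18 (limma adjusted p = 0.00168). MIS18A, a licensing factor of the MIS18 complex that marks the centromere before loading, had signals of 4296 and 4324 on the monolayer arrays and 1799 and 1959 on the spheroid arrays. Its replicates were nearly equal within each culture type, and the difference was -1.19 ± 0.15 (limma adjusted p = 8.87e-05). OIP5, the other MIS18 subunit, had signals of 3602 and 3320 on the monolayer arrays and 1594 and 1470 on the spheroid arrays. The OIP5 groups were likewise far apart, at -1.16 ± 0.16 (limma adjusted p = 0.000146). The intervals of MIS18A and OIP5 (-1.51 to -0.86 and -1.50 to -0.82) did not reach that of CENPA, whereas that of HJURP (-1.30 to -0.52) overlapped it. The difference between these probe sets was not tested.

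All 9 tested CCAN genes of the list were lower in spheroids, with a median log2 difference of -1.11 and a median spheroid level of 45.9% of monolayers. Of CCAN genes outside the list, CENPC was not called (-0.41, limma adjusted p = 0.22), CENPX was lower (-1.05) and CENPT was under 300 units. CENPK, a subunit of the CENP-H/I/K/M group that recruits other CCAN proteins, had signals of 1585 and 1636 on the monolayer arrays and 643 and 639 on the spheroid arrays. The spheroid values were almost identical, and the log2 difference of -1.29 ± 0.18 (limma adjusted p = 0.000206) was the largest decrease among the 36 genes on the probe sets used. CENPN, which with CENPL reads the CENP-A nucleosome, had signals of 7402 and 7550 on the monolayer arrays and 3327 and 3302 on the spheroid arrays. Both CENPN groups were tight and well apart, at -1.17 ± 0.13 (limma adjusted p = 4.52e-05). CENPL had signals of 1577 and 1425 on the monolayer arrays and 909 and 919.5 on the spheroid arrays, a difference of -0.69 ± 0.18 (limma adjusted p = 0.00905). Its groups did not overlap, but without monolayer replicate 1 the difference of -0.62 was not called.

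CENPO, CENPQ and CENPU belong to a further CCAN group that takes part in recruiting the kinase PLK1. CENPO had signals of 780.2 and 726 on the monolayer arrays and 268 and 361 on the spheroid arrays, with a log2 difference of -1.19 ± 0.24 (limma adjusted p = 0.00183). CENPQ had signals of 1120 and 987 on the monolayer arrays and 383 and 575 on the spheroid arrays, with a difference of -1.11 ± 0.23 (limma adjusted p = 0.00255). For both genes spheroid replicate 2 was the higher of the spheroid arrays and was still below both monolayer arrays. CENPU had signals of 3783 and 3985 on the monolayer arrays and 1561 and 2025 on the spheroid arrays and differed by -1.11 ± 0.17 (limma adjusted p = 0.0003). Its dimmer probe sets gave smaller decreases, as described with the other probe sets. CENPW, a histone-fold protein of the CENP-T/W/S/X group that contacts centromeric DNA, had signals of 5192 and 5916 on the monolayer arrays and 2555 and 2542 on the spheroid arrays. The groups were well separated at -1.11 ± 0.15 (limma adjusted p = 0.000111).

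CENPM and CENPH, partners of CENPK, were lower with less margin. CENPM had signals of 1034 and 1515 on the monolayer arrays and 667 and 624 on the spheroid arrays, a log2 difference of -0.92 ± 0.22 (limma adjusted p = 0.00547). The monolayer arrays were apart, and without the higher one, replicate 2, the difference of -0.65 was not called. CENPH had signals of 795 and 781 on the monolayer arrays and 418 and 594 on the spheroid arrays, a difference of -0.63 ± 0.23 (limma adjusted p = 0.0451). CENPH was no longer called when monolayer replicate 1 (-0.62), monolayer replicate 2 (-0.64) or spheroid replicate 1 (-0.39) was left out. CENPI, the remaining subunit of this group, was under the filter with signals of 259 and 279.5 on the monolayer arrays and 166 and 193 on the spheroid arrays. Its spheroid arrays were both lower, and in the fit without a filter the log2 difference of -0.51 ± 0.32 was not called (limma adjusted p = 0.387), where 6.66% of 19775 genes were called lower.

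**Figure D3:**
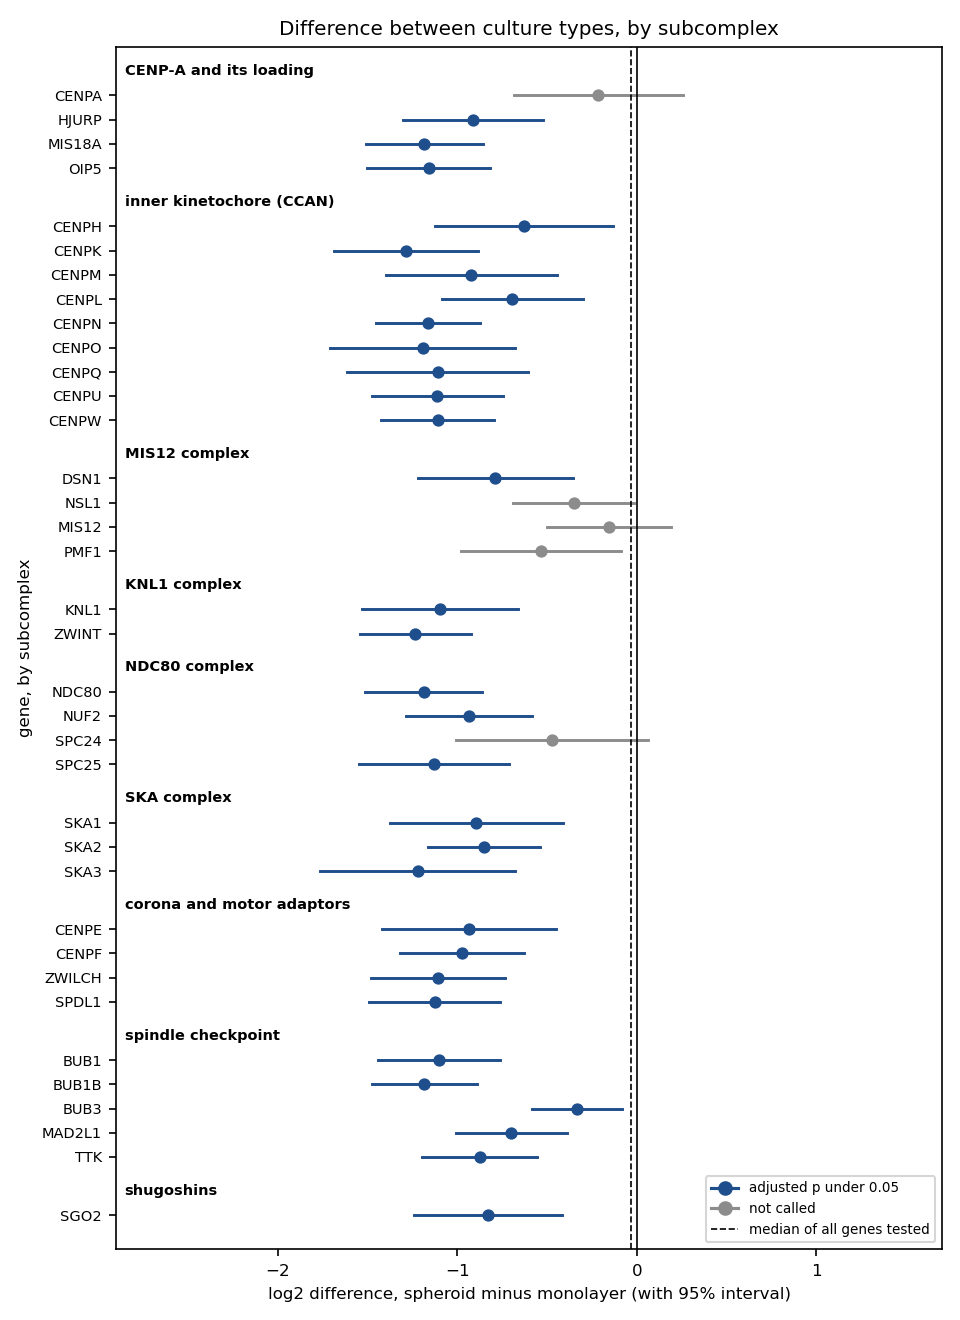
Log2 difference, spheroids minus monolayers (x), of each tested gene with its 95% interval from limma, by subcomplex, blue where the adjusted p was under 0.05 and grey where it was not. The dashed line is the median of all genes tested, -0.030; the 5 grey genes are CENPA, NSL1, MIS12, PMF1 and SPC24, of which 3 belong to the MIS12 complex.

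The MIS12 complex, which joins the inner kinetochore to the outer one, had 1 of 4 genes called lower and a median log2 difference of -0.44, the smallest decrease of the 9 subcomplexes. DSN1, the subunit that receives Aurora B phosphorylation, had signals of 1161 and 1040 on the monolayer arrays and 587 and 659.9 on the spheroid arrays. Its difference was -0.79 ± 0.20 (limma adjusted p = 0.00764), and the groups were well apart. PMF1 had signals of 1283 and 1049 on the monolayer arrays and 707 and 885 on the spheroid arrays. Spheroid replicate 2 came near monolayer replicate 2, and the difference of -0.53 ± 0.21 was not called (95% interval -0.98 to -0.09, limma adjusted p = 0.055). NSL1 had signals of 2905 and 3353 on the monolayer arrays and 2409 and 2465 on the spheroid arrays, a difference of -0.35 ± 0.15 (95% interval -0.69 to -0.02, limma adjusted p = 0.0885). MIS12, the name-giving subunit, had signals of 2087 and 2130 on the monolayer arrays and 1863 and 1922 on the spheroid arrays. Its groups were close without overlapping, at -0.15 ± 0.16 (95% interval -0.50 to 0.19, limma adjusted p = 0.473). The intervals of NSL1, MIS12 and PMF1 all ended short of a 2-fold decrease. Without monolayer replicate 1 DSN1 was no longer called (-0.71) and 0 of 4 genes were; without spheroid replicate 2 PMF1 was also called (-0.69) and 2 of 4 were. PMF1 was called with quantile normalization too (-0.60). With a block for the replicate number NSL1 and PMF1 were both called, so that 3 of 4 genes were lower. The numbers were not taken to pair the cultures. Whether the MIS12 complex differs from the other subcomplexes was not tested.

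Both tested genes of the KNL1 complex were lower, with a median log2 difference of -1.17. KNL1, the scaffold on which BUB proteins assemble, had signals of 1683 and 1607 on the monolayer arrays and 644 and 877 on the spheroid arrays, with a log2 difference of -1.10 ± 0.20 (limma adjusted p = 0.00107). ZWINT, its partner that links to the corona, had signals of 13186 and 14426 on the monolayer arrays and 5151 and 6630 on the spheroid arrays. Both spheroid values of ZWINT were far below the monolayer values, at -1.23 ± 0.14 (limma adjusted p = 4.88e-05).

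In the NDC80 complex, which holds the microtubule, 3 of 4 genes were lower and the median log2 difference was -1.03. NDC80, the subunit that contacts the microtubule lattice, had signals of 4429 and 4427 on the monolayer arrays and 1841 and 2012 on the spheroid arrays. Its monolayer values were nearly equal, and the difference was -1.19 ± 0.15 (limma adjusted p = 8.49e-05). NUF2, its dimer partner, had signals of 2780 and 2884 on the monolayer arrays and 1389 and 1547 on the spheroid arrays and differed by -0.94 ± 0.16 (limma adjusted p = 0.000736). SPC24 and SPC25 form the other dimer of the complex, which docks on MIS12 and CENP-T. SPC25 had signals of 3567 and 2528 on the monolayer arrays and 1469 and 1246 on the spheroid arrays, a difference of -1.13 ± 0.19 (limma adjusted p = 0.000672). SPC24 had signals of 471 and 549.6 on the monolayer arrays and 413 and 309 on the spheroid arrays. The SPC24 difference of -0.47 ± 0.25 was not called (95% interval -1.01 to 0.06, limma adjusted p = 0.149) and its interval held both 0 and a 2-fold decrease.

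All 3 genes of the SKA complex, which keeps kinetochores on depolymerizing microtubule ends, were lower, with a median log2 difference of -0.90. SKA1, the microtubule-binding subunit, had signals of 807 and 724 on the monolayer arrays and 429 and 366 on the spheroid arrays, a log2 difference of -0.90 ± 0.22 (limma adjusted p = 0.00694). SKA2 had signals of 5060 and 4843 on the monolayer arrays and 2834 and 2626 on the spheroid arrays, a difference of -0.85 ± 0.14 (limma adjusted p = 0.000618). SKA1 and SKA2 values were close within each culture type. SKA3, which takes up CDK1 phosphorylation to join NDC80, had signals of 1458 and 2354 on the monolayer arrays and 952 and 633 on the spheroid arrays. The SKA3 arrays spread widely within both culture types, and the difference of -1.22 ± 0.25 (limma adjusted p = 0.00222) had the largest standard error of the 36 genes.

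The 4 genes of the list that encode the fibrous corona and motor adaptors were all lower, with a median log2 difference of -1.04. CENPE, the kinesin that carries chromosomes towards the spindle equator, had signals of 973 and 1168 on the monolayer arrays and 458 and 639 on the spheroid arrays, a log2 difference of -0.94 ± 0.22 (limma adjusted p = 0.00562). CENPF, a large corona protein that binds dynein regulators, had signals of 3855 and 4653 on the monolayer arrays and 2036 and 2248 on the spheroid arrays, a difference of -0.97 ± 0.16 (limma adjusted p = 0.000499). In both, the monolayer and spheroid arrays were clearly apart. ZWILCH, a subunit of the RZZ complex that brings dynein and MAD1 to the kinetochore, had signals of 3474 and 4421 on the monolayer arrays and 1643 and 1973 on the spheroid arrays, a difference of -1.11 ± 0.17 (limma adjusted p = 0.000373). Of its RZZ partners outside the list, KNTC1 was not called (-0.50, limma adjusted p = 0.0921) and ZW10 was lower (-0.69, limma adjusted p = 0.0114). SPDL1 (Spindly), the dynein adaptor at the kinetochore, had signals of 2431 and 2719 on the monolayer arrays and 1108 and 1214 on the spheroid arrays. The SPDL1 difference was -1.13 ± 0.17 (limma adjusted p = 0.000285), close to that of ZWILCH.

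All 5 spindle checkpoint genes of the list were called lower, with a median log2 difference of -0.88, but by unequal amounts. MAD1L1 (MAD1), 1 of 6 checkpoint partners outside the list of which 3 were lower, was not called (-0.42, limma adjusted p = 0.25). BUB1B (BUBR1), which as part of the mitotic checkpoint complex inhibits the APC/C, had signals of 6942 and 7250 on the monolayer arrays and 3074 and 3135 on the spheroid arrays. Both groups were tight, and the log2 difference was -1.18 ± 0.14 (limma adjusted p = 4.49e-05). BUB1, a kinase that marks centromeric histone H2A, had signals of 4212 and 4940 on the monolayer arrays and 1998 and 2221 on the spheroid arrays, a difference of -1.10 ± 0.16 (limma adjusted p = 0.000186). TTK (MPS1), the kinase that starts checkpoint signalling, had signals of 4339 and 4489 on the monolayer arrays and 2265 and 2526 on the spheroid arrays. Its difference was -0.88 ± 0.15 (limma adjusted p = 0.000646), with no overlap between groups. MAD2L1 (MAD2), which binds CDC20, had signals of 18363 and 14204 on the monolayer arrays and 9240 and 10683 on the spheroid arrays. The MAD2L1 monolayer arrays were the more spread, and the difference was -0.70 ± 0.14 (limma adjusted p = 0.00208). BUB3, the adaptor that brings BUB1 and BUBR1 to KNL1, had signals of 18184 and 20863 on the monolayer arrays and 15707 and 15152 on the spheroid arrays. Its spheroid level was 79.0% of monolayers, a difference of -0.34 ± 0.12 (95% interval -0.59 to -0.09, limma adjusted p = 0.0354). BUB3 was no longer called when monolayer replicate 2 (-0.24), spheroid replicate 1 (-0.36) or spheroid replicate 2 (-0.31) was left out, without a filter or an intensity trend, and with quantile normalization (-0.22). BUB3 is also known to act outside mitosis, and the part of this in its level was not tested. The BUB3 interval overlapped those of TTK (-1.20 to -0.55) and MAD2L1 (-1.01 to -0.39) but not those of BUB1 (-1.44 to -0.77) or BUB1B (-1.48 to -0.89). The difference between these probe sets was not tested.

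The shugoshins protect cohesin at the centromere until anaphase. SGO2 had signals of 1997 and 2809 on the monolayer arrays and 1280 and 1356 on the spheroid arrays, with a log2 difference of -0.83 ± 0.19 (limma adjusted p = 0.00442). The groups did not overlap, but without monolayer replicate 2, the higher of its pair, the difference of -0.59 was not called. SGO1 was under the filter, with signals of 170.0 and 120.4 on the monolayer arrays and 83.8 and 167 on the spheroid arrays. These overlapped between the culture types, and the log2 difference without a filter was -0.21 ± 0.44 (limma adjusted p = 0.838). A dimmer SGO1 probe set read 165 and 158 on the monolayer arrays and 80.3 and 72.7 on the spheroid arrays, so that its groups did not overlap. The level of SGO1 is therefore left without a direction.

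Several genes were measured by more than 1 probe set. The 38 genes had 75 probe sets, of which 54 had a mean above 300 units, and 12 genes had several of these. All 18 additional probe sets above 300 units were lower on both spheroid arrays than on both monolayer arrays, with a median log2 difference of -0.84 and a range of -1.67 to -0.39. Of the 21 probe sets under 300 units, 13 had both spheroid arrays lower. The share of all such probe sets on the array that did so was not computed for either count, so both are description only. The sizes were alike for some genes and not for others. Above 300 units, BUB3 had probe sets between -0.44 and -0.34, while those of BUB1 were at -1.10 and -1.07. MAD2L1 differed by -0.70 on the probe set used and by -1.32 on another, with signals of 7632 and 10445 on the monolayer arrays and 3009 and 4204 on the spheroid arrays. CENPN reached -1.67 on a dimmer probe set, with signals of 3272 and 2469 on the monolayer arrays and 911 and 828 on the spheroid arrays, against -1.17 on the one used. CENPU went the other way, with -0.45 and -0.51 on dimmer probe sets against -1.11. With all probe sets of the _x_at and _s_at types left out, the CENPU difference of -0.45 was not called.

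**Figure D4:**
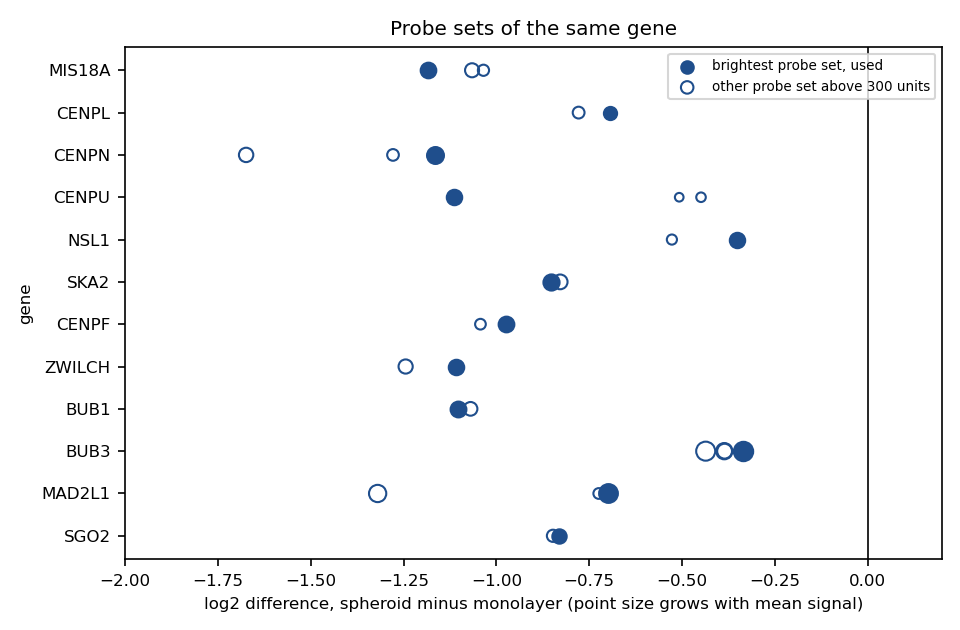
Log2 difference, spheroids minus monolayers (x), of every probe set above 300 units for the 12 genes with several, filled for the brightest one, which was used, and open for the others; point size grows with mean signal. All points lie left of 0, with the widest spread in CENPU, MAD2L1 and CENPN.

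Mitotic genes outside the list of 39, among them further kinetochore genes such as CENPC, KNTC1 and ZW10, were described from 5 lists of 46 genes. Of these 46, 41 were tested, 23 called lower and 1 higher (20.6% and 19.0% of all genes tested), with a median log2 difference of -0.52. All 7 tested genes of the chromosomal passenger complex and centromeric regulators were lower (median -1.12). Its catalytic kinase AURKB, which corrects faulty attachments, had signals of 2477 and 2549 on the monolayer arrays and 1040 and 833 on the spheroid arrays, a difference of -1.40 ± 0.18 (limma adjusted p = 9.58e-05). With the mean of all its probe sets the AURKB difference was -0.53 and was not called. HASPIN, 1 of the 7 genes, entered through its monolayer signal alone, with a mean of 566 in monolayers and 232 in spheroids. INCENP, the untested gene of this list, was under the filter. Its arrays overlapped, with signals of 148 and 329 in monolayers and 182 and 122 in spheroids. PLK1, which primes kinetochore assembly, had signals of 2287 and 1442 on the monolayer arrays and 925 and 484 on the spheroid arrays. Its arrays spread within both groups, with a difference of -1.40 ± 0.29 (limma adjusted p = 0.00221). Of 6 checkpoint partners 3 were lower (median -0.60). CDC20, the APC/C activator that MAD2 and BUBR1 hold, had signals of 10806 and 9310 on the monolayer arrays and 3827 and 3344 on the spheroid arrays, a difference of -1.48 ± 0.14 (limma adjusted p = 1.12e-05). TRIP13, the ATPase that recycles MAD2, had signals of 5397 and 6125 on the monolayer arrays and 2206 and 2360 on the spheroid arrays, a difference of -1.32 ± 0.15 (limma adjusted p = 3.81e-05).

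The APC/C, the ubiquitin ligase on which the checkpoint acts, showed a different range. Its list of 14 tested genes held the activator FZR1 beside the subunits, while the activator CDC20 was listed with the checkpoint partners. Of these 14 genes 5 were called lower and 1 higher, beside 20.6% and 19.0% of all genes tested, and the median was -0.27. With spike-in scaling 10 were lower and 0 higher, where 3996 of all 8721 genes were lower. The number called lower fell whichever array was left out, as it did over all genes tested, and the median then lay between -0.37 and -0.25. CDC26 had the largest decrease, with signals of 2660 and 2828 on the monolayer arrays and 1512 and 1464 on the spheroid arrays and a log2 difference of -0.87 ± 0.16 (limma adjusted p = 0.00112). ANAPC16 was the gene called higher, with signals of 6141 and 5839 on the monolayer arrays and 12042 and 9394 on the spheroid arrays. Its difference of 0.83 ± 0.14 (limma adjusted p = 0.000737) turned to -0.034 with spike-in scaling, which moved the median of all genes to -0.87. Of 11 genes of cohesin and sister separation 7 were lower (median -0.54). CDCA5 (sororin), which locks cohesin on replicated chromatids, had signals of 2547 and 2534 on the monolayer arrays and 1011 and 801 on the spheroid arrays, a difference of -1.46 ± 0.18 (limma adjusted p = 7.36e-05). ESPL1 (separase), which cuts cohesin at anaphase, had signals of 2062 and 1848 on the monolayer arrays and 913 and 944 on the spheroid arrays, a difference of -1.05 ± 0.18 (limma adjusted p = 0.000617). Among the 3 tested centromere proteins that were not in the list of 39, 1 was lower: CENPX, of the CENP-T/W/S/X group, had signals of 11906 and 11085 on the monolayer arrays and 5560 and 5474 on the spheroid arrays, a difference of -1.05 ± 0.12 (limma adjusted p = 5.63e-05). Differences between these lists and the list of 39 were not tested.

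**Figure D5:**
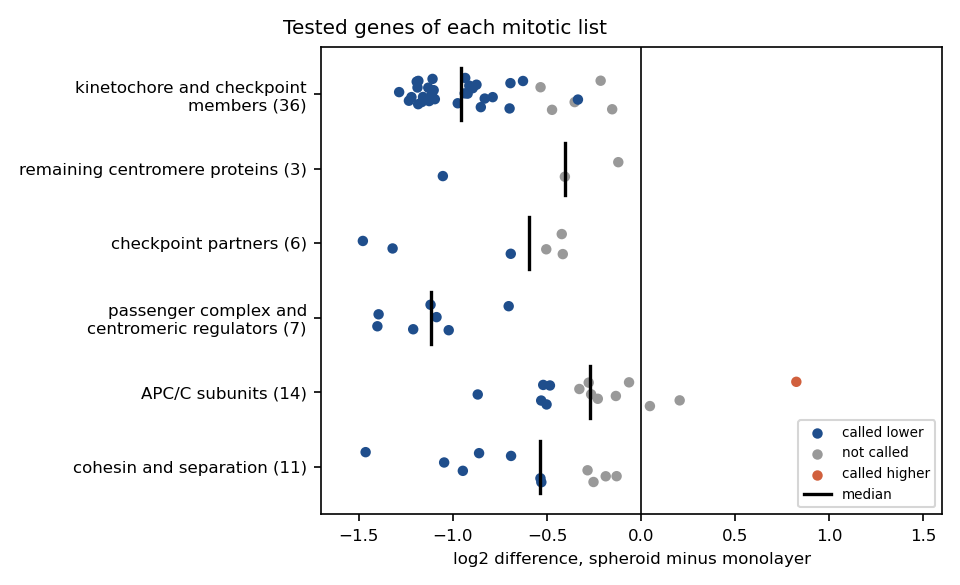
Log2 difference, spheroids minus monolayers (x), of each tested gene of the kinetochore and checkpoint list and of 5 further mitotic lists (y, number tested in brackets), blue for called lower, red for called higher, grey for not called, with a bar at the median. The medians are -0.96 for the kinetochore and checkpoint genes, -1.12 for the passenger complex list and -0.27 for the APC/C, and the red point is ANAPC16, which lay at -0.034 with spike-in scaling, where the median of all genes was -0.87.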

How the data were processed

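Total RNA (2 micrograms) of 2 monolayer and 2 spheroid cultures of HCT116 cells was labelled as biotinylated cRNA and hybridized to 1-colour Affymetrix U133 Plus 2.0 arrays. The values deposited for each probe set are signal intensity on a linear scale, which the authors normalized with MAS5 (version: not given in the sources used here). Since every array has one average, a change in total mRNA per cell would not be seen. The table held 54675 probe sets, of which 62 were controls, 41091 had 1 gene symbol in the platform annotation, 1801 had several and 11721 were not listed; only those with 1 symbol were named. Probe sets averaging more than 300 units across the arrays entered, a level taken from the study's methods, with 1 probe set per gene (highest mean), giving 8721 genes. No columns of samples were left unused.

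Groups were compared on log2(signal + 32) by lmFit and eBayes of limma 3.58.1 in R 4.3.3. The prior variance followed intensity, tests were two-sided, and p-values were adjusted by Benjamini-Hochberg across the 8721 genes. The added constant understates differences of dim genes. The fit had 2 residual degrees of freedom, a prior worth 10.5 and a median standard error of 0.19, and the number of arrays limits the precision. Lists received counts and medians with no set test. All 39 members were named. Of each other list, the 2 called genes with the largest difference and any called in the opposite direction were named. CENPC, CENPT, MAD1L1, KNTC1, ZW10 and FZR1 were named in addition, beside related genes. The members, lists and subcomplexes were chosen with earlier results of these data known. Alternatives were other filters (none, mean above 100), constants (16, 64), scalings (quantile, Bacillus spike-in controls) and rules for choosing a probe set, a prior without the trend, a block for the replicate number, and each array left out in turn. Promoter windows came from RefSeq (GRCh38.p14), with 1 window per gene at its most upstream start. Across genes, which are not independent replicates, arrays correlated at 0.984 (monolayer), 0.979 (spheroids) and 0.889 to 0.902 (between groups). No arrays held identical values.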

Additional observations from a re-analysis of the deposited data

How the results depend on the processing

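Of the 31 kinetochore and checkpoint genes called lower, 24 kept the call under every one of the 14 alternatives that gave a value, and CENPH, CENPM, CENPL, CENPU, DSN1, BUB3 and SGO2 lost it under some. Leaving out 1 array at a time gave a median of -1.06 to -0.90 for the 36 genes and -0.53 to -0.36 for the MIS12 complex. It gave -1.07 to -0.59 for the shugoshins, of which only SGO2 was tested, and -0.37 to -0.25 for the APC/C. Most changes came with scaling to 24 Bacillus spike-in probe sets, which lowers every value by construction. It gave 3996 genes lower and 183 higher, called all 36 kinetochore and checkpoint genes lower, CENPA, NSL1, MIS12, PMF1 and SPC24 included, and gave a median of -1.80 for the 36 genes, -1.88 for CENP-A and its loading, -1.96 for the CCAN, -1.29 for the MIS12 complex (4 called), -2.01 for the KNL1 complex, -1.88 for the NDC80 complex, -1.71 for the SKA complex, -1.89 for the corona, -1.73 for the spindle checkpoint and -1.68 for the shugoshins. Among the further lists it gave -1.19 for the remaining centromere proteins (2 lower), -1.43 for the checkpoint partners (6 lower), -1.96 for the passenger complex list, -1.09 for the APC/C (10 lower, 0 higher, ANAPC16 at -0.034) and -1.39 for cohesin and separation (11 lower). Without probe sets ending in _x_at or _s_at, fewer genes were tested (6094) and 1114 were lower, with 24 of 28 kinetochore and checkpoint genes, 1 of 1 in the KNL1 complex, 2 of 2 in the corona, 4 of 4 in the passenger complex list (median -1.33) and 2 of 8 in the APC/C, and a spindle checkpoint median of -1.14. Quantile normalization gave 2 genes lower in the MIS12 complex (DSN1 and PMF1). The mean of all probe sets gave 2 in the APC/C and 4 in cohesin and separation, and no intensity trend gave 3 in the APC/C. Under both settings fewer of all genes tested were called lower too, and whether these lists differ from all genes was not tested. The cause of these changes was not tested where the construction does not give it.

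With the replicate block, 2301 genes were lower and 2114 higher, with 33 of the 36 kinetochore and checkpoint genes lower (NSL1 and PMF1 gained), 3 of them in the MIS12 complex, and 5 among the checkpoint partners. Same-numbered arrays deviated together (correlation 0.323), but with 2 pairs and no label stating a shared day the numbers were not taken to pair the cultures.

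The 2 arrays per culture type and 1 cell line limit these results. The p-values rest on the spread between these cultures together with a prior variance drawn from all genes tested. The prior was worth 10.5 degrees of freedom, against 2 from the arrays of the gene itself. CENPI and SGO1, under 300 units, were measured without a call.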
